A study of Mus musculus with 4 samples.

Results

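Ugt2b1, Ugt2b5, Ugt2b34, Ugt2b35, Ugt2b36 and Ugt2b38 encode UDP-glucuronosyltransferases of family 2B in the mouse. They were taken as the genes with these symbols, read from probe sets annotated to a single gene, which gave 7 probe sets for 6 genes among 18193 genes on the array. Ugt2b34 had 2 probe sets and each of the other members had 1. The samples are livers from male mice of the inbred strain C57BL/6J, fed a low-fat diet ad libitum, at ages of 4, 8, 13 and 21 months. RNA from 6 livers per age was combined and read on 1 oligonucleotide array, so the 4 groups hold 1 array each. The spread between mice is therefore not known and no pair of ages could be tested. Each difference is a size between pools, and in a pool a large difference in a few mice cannot be told from a smaller one in all of them. The number of arrays limits the precision.

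UDP-glucuronosyltransferases sit in the membrane of the endoplasmic reticulum and attach glucuronic acid, donated by UDP-glucuronic acid, to small lipophilic molecules. The glucuronides are more water-soluble and leave the hepatocyte into bile or blood. Family 2B enzymes of mammals conjugate steroid hormones, bile acids, fatty acid derivatives and many drugs, and the liver is their main site. In the rat, UGT2B1 is known as the enzyme that conjugates bisphenol A in liver. Ugt2b1 and Ugt2b38 are known as genes with higher expression in male than in female mouse liver. Gene numbers do not pair mouse members with human members of the family, so no human substrate is assigned to a mouse gene here.

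The members lie together on chromosome 5. In the RefSeq annotation of GRCm38.p6 the protein-coding genes of this interval run in the order Ugt2b34, Ugt2b1, Ugt2b35, Ugt2b36, Ugt2b5, Ugt2b37, Ugt2a3 and Ugt2b38, so 2 of 8 are not members. The interval was cut at the outermost members, so a member stands at each end by construction, and genes beyond it were not looked at. All 6 members had an upstream sequence in the RefSeq table of that build. The last 100 bases before each annotated transcript start are shown because all 6 hold the same spaced element there. It is the 13-base window of the upstream sequences with the most positions, 10, that are the same in all 6 members, and it reads GTTANANNTTAAC. The capitals mark it in each sequence.
Ugt2b1 (chr5:86926504-86926603, minus strand): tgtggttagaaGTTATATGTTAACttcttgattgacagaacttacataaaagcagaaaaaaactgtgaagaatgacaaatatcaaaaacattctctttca
Ugt2b5 (chr5:87140341-87140440, minus strand): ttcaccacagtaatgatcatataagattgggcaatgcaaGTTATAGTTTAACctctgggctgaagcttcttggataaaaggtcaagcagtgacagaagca
Ugt2b34 (chr5:86906938-86907037, minus strand): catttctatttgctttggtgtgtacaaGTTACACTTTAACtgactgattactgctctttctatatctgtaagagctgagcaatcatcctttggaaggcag
Ugt2b35 (chr5:87000760-87000859, plus strand): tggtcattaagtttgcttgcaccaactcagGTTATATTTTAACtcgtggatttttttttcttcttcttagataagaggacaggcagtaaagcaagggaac
Ugt2b36 (chr5:87092556-87092655, minus strand): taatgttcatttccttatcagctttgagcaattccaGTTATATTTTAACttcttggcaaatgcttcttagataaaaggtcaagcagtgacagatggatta
Ugt2b38 (chr5:87424204-87424303, minus strand): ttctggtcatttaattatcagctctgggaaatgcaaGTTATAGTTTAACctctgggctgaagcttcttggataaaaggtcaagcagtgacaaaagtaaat
The element was derived from these sequences, and its width was chosen after they were read, so its presence in the members is a description. It began between 89 bases (Ugt2b1) and 61 bases (Ugt2b5) before the start. It was derived from windows read in the direction of each gene, so its shared direction follows from that. Ugt2b5 and Ugt2b38 share the core GTTATAGTTTAAC, and Ugt2b35 and Ugt2b36 share GTTATATTTTAAC. Both strands were searched over the 250 bases before the start, and 28 of 32851 windows of the table held the element, which is 0.0852%. A form TTCNNNGAA, the spacing known for STAT5 sites, was in 7.02% of windows and in no member, which says only that these letters are not in this stretch. The half-site AGGTCA of nuclear receptors was in 14.0% of windows and in 4 members, Ugt2b5, Ugt2b35, Ugt2b36 and Ugt2b38, and overlapped the 13-base element in none of them. Over the 250 bases Ugt2b5 and Ugt2b38 were the most alike of the 15 pairs, with 81.5% identical positions in a global alignment, and the other pairs lay between 45.6% and 60.8%.

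**Figure D1:**
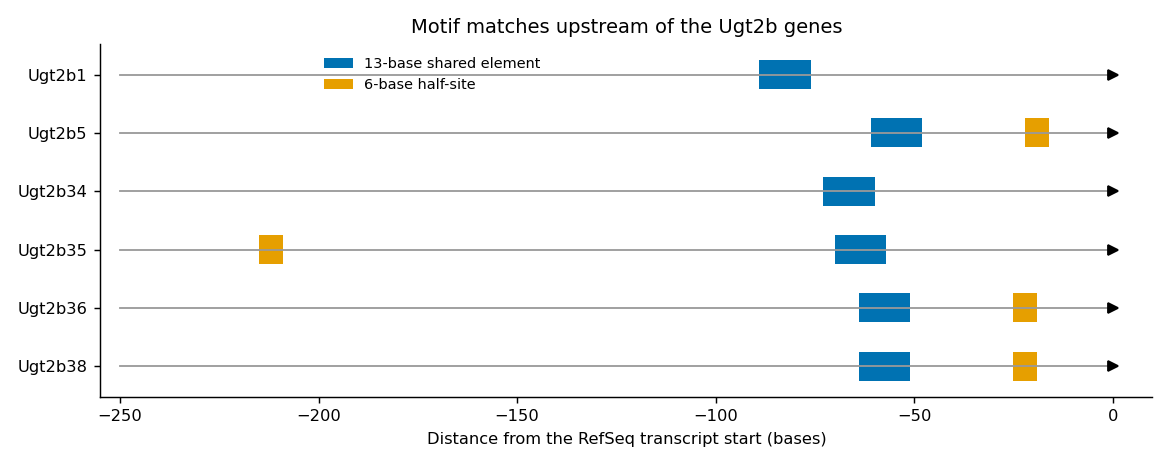
Motif matches in the 250 bases before the RefSeq transcript start of the 6 members, plotted as distance from the start in bases (arrowheads mark the start). The blue 13-base element lies between 89 and 49 bases before the start in all 6, and the orange 6-base half-site is in 4.

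Levels are RMA values in log2 units, so that 1 unit is 2-fold, and they are compared between ages within a probe set, since levels of different probe sets are not comparable. Array medians lay between 3.73 and 3.76. The 3′ minus 5′ difference of the Gapdh control, a measure of RNA integrity, lay between 0.11 and 0.21, and that of the β-actin control between 1.01 and 1.16. A gene was counted as higher or lower past 1.5-fold, and its background is the share of genes meeting the same rule among the 11587 that passed a filter on level, a mean over the ages of at least 3.74. All 6 members passed it. Liver RNA mixes cell types, and fewer cells of a type cannot be told apart from less RNA per cell. A gauge of measurement error comes from genes with at least 2 probe sets above the filter. In 4796 such genes the differences from the top pair of probe sets disagreed by a median of 0.11 to 0.13 over the 6 pairs of ages, and 95% disagreed by at most 0.40 to 0.46.

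Ugt2b38 differed between ages far more than the other members. It was at 7.52 at 4 months, 8.05 at 8 months, 7.50 at 13 months and 6.11 at 21 months. The 4- and 13-month pools were thus nearly equal, the 8-month pool was the highest and the 21-month pool the lowest. At 21 against 4 months the difference was -1.41, which is 2.66-fold lower, or 37.6% of the 4-month level. Among the 11587 genes this was the second lowest difference. Against 13 months the 21-month level was lower by 1.39 on the log2 scale, again the second lowest of all genes above the filter. Against 8 months the difference was -1.94, 3.84-fold lower, and no other gene above the filter had a lower one in that comparison. These comparisons share the 21-month array, so they do not stand for separate observations.

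Before 21 months the excursion of Ugt2b38 was smaller. Its 8-month level was 0.53 above the 4-month level and its 13-month level was -0.55 relative to 8 months. Both fall short of 1.5-fold, which is 0.585 on this scale, and both exceed the disagreement between probe sets found in 95% of genes. The step up was matched or exceeded by 0.768% of genes and the step down by 0.475%, and both steps use the 8-month array. Over all ages Ugt2b38 spanned 1.94, and 14 of the 11587 genes spanned more. Ugt2b38 has a single probe set, so no second measurement on the array bears on these values, and the probe sequences, which would show whether transcripts of near-identical family members can bind to it, were not used here.

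Ugt2b1 was the member with the next widest span. It was at 11.49 at 4 months, 11.42 at 8 months, 11.24 at 13 months and 11.23 at 21 months. The 2 older pools were alike and lay below the 2 younger ones, with most of the difference between 8 and 13 months, at -0.18. At 21 against 4 months the difference was -0.26, or 83.5% of the 4-month level. A difference this low or lower was found in 5.96% of genes, and it is within the 95% range of disagreement between probe sets of a gene, so it is not separated from measurement error here.

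Ugt2b36 and Ugt2b5 had small downward differences. Ugt2b36 was at 12.01, 11.99, 11.94 and 11.88 at 4, 8, 13 and 21 months, a span of 0.13. Ugt2b5 was at 11.92, 11.95, 11.88 and 11.81, a span of 0.14. In both genes the 21-month pool was the lowest. The differences at 21 against 4 months, -0.13 for Ugt2b36 and -0.11 for Ugt2b5, are about the size of the median disagreement between probe sets. Ugt2b5, whose upstream sequence is the closest to that of Ugt2b38, thus had no counterpart of the 1.94 span of Ugt2b38.

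Ugt2b35 and Ugt2b34 varied little. Ugt2b35 was at 10.74, 10.64, 10.59 and 10.66 at 4, 8, 13 and 21 months, lowest at 13 months. For Ugt2b34 the brighter probe set was at 11.04, 11.03, 11.04 and 11.03, a span equal to the 0.01 to which the values are rounded. Besides it, 19 of the 11587 genes spanned no more. The other probe set of Ugt2b34 was at 10.23, 10.26, 10.26 and 10.30. Its 21 against 4 months difference of 0.07 and the -0.01 of the brighter set differ in sign and are both below the median disagreement.

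**Figure D2:**
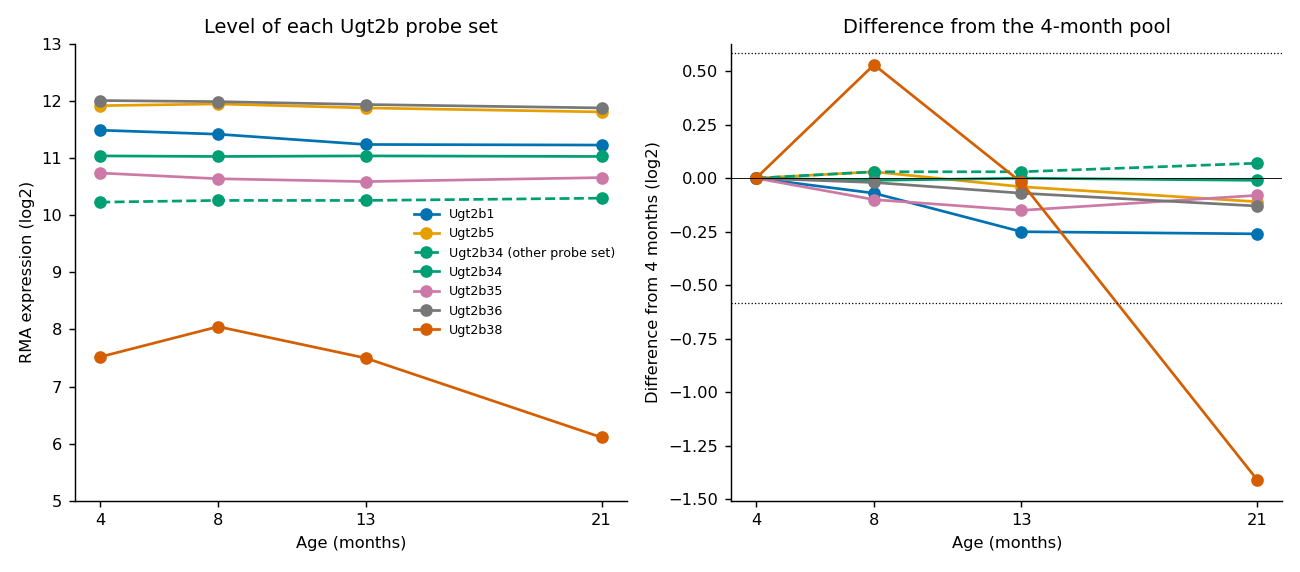
RMA expression (log2) of the 7 Ugt2b probe sets by age in months, as levels (left) and as differences from the 4-month pool (right), with 1 array of 6 pooled mice per point and no error bars. Dotted lines mark 1.5-fold. Ugt2b38 ends at 6.11, -1.41 from its 4-month level, and the other probe sets stay between -0.26 and 0.07 of theirs at every age.

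Counted together, 1 of the 6 members, Ugt2b38, was at least 1.5-fold lower at 21 than at 4 months, where the background was 0.423%, and it was also past 2-fold, where the background was 0.0345%. None was at least 1.5-fold higher (background 2.11%) or 2-fold higher (background 0.561%). The same single member was past 1.5-fold lower at 21 against 13 months (background 0.457%) and at 21 against 8 months (background 0.699%). None was past 1.5-fold higher in these comparisons, where the background was 1.47% and 2.66%. At 8 against 4 months no member passed 1.5-fold, with backgrounds of 0.501% higher and 0.354% lower. Likewise none passed at 13 against 8 months (0.716% higher, 0.362% lower) or at 13 against 4 months (0.837% higher, 0.457% lower). The median difference over the members at 21 against 4 months was -0.12, against 0.01 over all genes above the filter. The probe sets that stand for the 6 members were all below their 4-month level at 21 months. So were 45.2% of all genes above the filter. Among the members Ugt2b34 turned to 0.02 when arrays were centred on their medians and to 0.03 with its probe sets averaged. The other probe set of Ugt2b34 alone gave 0.07. For 5 of the 6 the difference was within the 95% range of disagreement between probe sets.

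**Figure D3:**
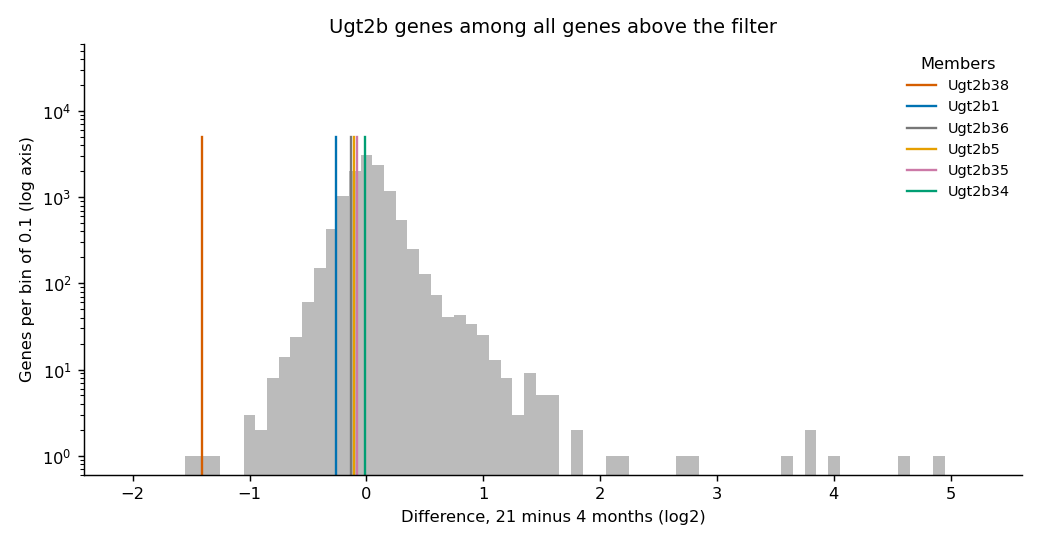
Differences between 21 and 4 months (log2, 21 minus 4) of the 11587 genes above the filter in bins of 0.1, with gene counts on a log axis, and the 6 members as coloured lines. Ugt2b38 at -1.41 lies at the low edge of all genes, and the other members, from -0.26 to -0.01, lie within the main body.

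The order of ages was looked at beside the sizes. The 21-month pool was the lowest of the 4 ages in 4 members, Ugt2b1, Ugt2b5, Ugt2b36 and Ugt2b38, and in 25.1% of all genes above the filter. For Ugt2b1 this rests on a difference of -0.01 from 13 months, which turned to 0.02 when arrays were centred on their medians. In Ugt2b5 and Ugt2b38 the 8-month pool was the highest and the 21-month pool the lowest, an order held by 9.86% of genes. Ugt2b1 and Ugt2b36 were lower at every step between ages (background 3.14%), and no member was higher at every step (background 4.38%). Several of these steps were 0.01 to 0.07, and the count of 2 became 1 when arrays were centred on their medians, under quantile normalization and under cyclic loess.

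The genes whose profile over the 4 ages was most like that of Ugt2b38 were found by the root mean square distance between values centred on each gene's own mean. With 4 arrays this likeness is a description, and many genes can share such a shape. Closest was Acot1, an acyl-CoA thioesterase, at a distance of 0.206, with levels of 8.63, 9.21, 9.04 and 7.66 at 4, 8, 13 and 21 months. The fatty acid ω-hydroxylase Cyp4a31 followed at 0.308, the kinetochore gene Spc25 at 0.333, Csad, an enzyme of taurine synthesis, at 0.343, and the mitochondrial carrier Slc25a30 at 0.364. All 5 were highest at 8 months and lowest at 21 months, with 21 against 4 months differences from -0.97 to -0.68. Ugt2b38 had the widest span of the 6.

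Closer in distance were the genes nearest to the Ugt2b38 profile turned in sign. Mt1, a metallothionein, was nearest at 0.132, at 9.37, 9.07, 9.58 and 11.15 over the 4 ages. Apcs, which encodes serum amyloid P, was at a distance of 0.141, and Fgl1, a fibrinogen-like secreted protein of hepatocytes, at 0.145. Slc41a2, a magnesium transporter family member, followed at 0.176 and Prg4, which encodes lubricin, at 0.178. All 5 were lowest at 8 months and highest at 21 months, higher at 21 than at 4 months by 1.35 to 1.78.

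**Figure D4:**
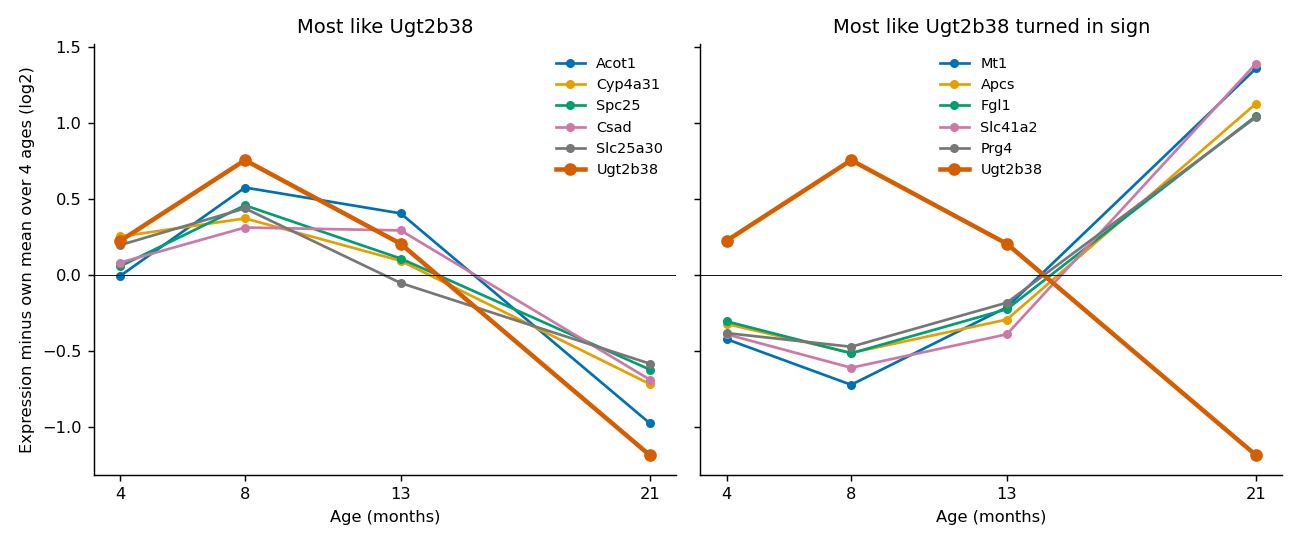
Expression minus each gene's own mean over the 4 ages (log2) against age in months, for the 5 genes most like Ugt2b38 (left) and the 5 most like its profile turned in sign (right), with Ugt2b38 as the thick line. The left genes share the 8-month maximum and 21-month minimum, and the right genes are highest at 21 months.

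Other UDP-glycosyltransferases showed no counterpart of the Ugt2b38 difference at 21 months. Of 15 listed genes 4 were above the filter with a probe set of their own, and none was past 1.5-fold at 21 against 4 months, with a median of 0.06. Ugt2a3, a neighbour of Ugt2b38 on chromosome 5, was at 10.29, 10.21, 10.30 and 10.30. The Ugt3a family, which uses other sugar donors, differed by -0.13 for Ugt3a2 and 0.11 for Ugt3a1. Ugt2b37, next to Ugt2a3 in the row, was dim, at 3.62, 4.35, 3.71 and 3.88, around the filter at 3.74. Its 4- and 13-month levels lay below the filter, so its passing leaned on the 8-month pool, where it was highest. Its differences from 4 months, 0.73 at 8 months and 0.26 at 21 months, are therefore given without a call. Ugt8a was below the filter. The Ugt1a genes, which share their 3′ exons, are read by 3 probe sets annotated to 8 symbols, and these differed by 0.01 to 0.06 at 21 against 4 months.

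The supply of the sugar donor and the fate of glucuronides were read from fixed lists. For these lists and those below, the background at 21 against 4 months was 0.423% past 1.5-fold lower and 2.11% higher. For UDP-glucuronic acid supply 0 of 7 genes were past 1.5-fold at 21 against 4 months and the median was 0.05. Ugdh, which oxidises UDP-glucose to UDP-glucuronic acid, was at 9.99, 10.02, 10.12 and 10.04, a span of 0.13. The nucleotide sugar transporters Slc35d2 and Slc35d1 were higher by 0.20 and 0.18, Pgm2 was at 0.00, and Uxs1, which removes UDP-glucuronic acid by decarboxylation, was at -0.09. In the list of glucuronide cleavage and transport 1 of 10 genes was past 1.5-fold lower and none higher, with a median of -0.06. That gene was Slco1a1, an uptake transporter of organic anions including steroid conjugates, at 10.38, 10.36, 9.87 and 9.59. Slco1a4 was at -0.37, and the exporter Abcc4 and the uptake transporter Slco2b1 were higher by 0.25 and 0.18.

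Of 14 receptors and transcription factors known to act on conjugation genes, 0 were past 1.5-fold at 21 against 4 months, with a median of -0.11. At 21 against 13 months 1 was past 1.5-fold higher (background 1.47%) and none lower (background 0.457%). That was Nr0b2, a repressing nuclear receptor of bile acid synthesis, at 8.93, 8.67, 7.80 and 8.85, with its low at 13 months. Foxa1, a liver pioneer factor, was at 7.88, 7.89, 7.88 and 7.37, lower at 21 months than at each of the other ages by about the same amount. The xenobiotic receptor gene Nr1i3 was at -0.21, and Ahr and Rxra were higher by 0.19 and 0.14. Of 15 other conjugating enzymes 1 was past 1.5-fold lower, the sulfotransferase Sult5a1 at -0.62, and 1 higher, the nicotinamide methyltransferase Nnmt at 0.59, with a median of -0.02. The call of Nnmt lies at the threshold, and the count higher was 0 under quantile normalization and under cyclic loess. Inmt was at -0.15 and Nat1 at 0.26.

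Enzymes of steroid breakdown and genes that differ between the sexes were read next. Of 12 steroid breakdown genes 2 were past 1.5-fold lower at 21 against 4 months and none higher, with a median of -0.02. Hsd17b6, a hydroxysteroid and retinol dehydrogenase, was at 9.40, 9.12, 8.95 and 8.39, lower at each step. The male-predominant Hsd3b5 was at 9.90, 10.06, 9.09 and 9.11, so its difference lay between 8 and 13 months, whereas that of Ugt2b38 was mostly between 13 and 21 months. Hsd3b2 and Hsd3b3 were at 0.12 and 0.07. Of 13 male-predominant genes, a list without the members, 3 were past 1.5-fold lower (background 0.423%) and 1 higher (background 2.11%). Their median was -0.28. Slco1a1 and Elovl3 were at -0.79 and -0.69, and Egfr and Moxd1 were at 0.81 and 0.32. With the probe sets of a gene averaged, none of the list was past 1.5-fold higher. Ugt2b38 at -1.41 was lower than each of the 13, and Ugt2b1 at -0.26 was near their median.

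A list of 19 genes known to be higher in female liver kept 7 at the filter on level. The median difference at 21 against 4 months depended on that choice, at 0.32 over the 7, 0.165 with no filter and 0.00 with a filter at the 75th percentile. Cyp2b9, a cytochrome P450 of female liver, was at 3.69, 3.56, 5.55 and 7.48, so it passed only through the pools where it is high. Abcd2 was higher by 0.55 while Acot3 was at -0.64 and Cyp17a1 at 0.00. Among 12 growth hormone and sex steroid signalling genes 1 was past 1.5-fold higher, the estrogen receptor gene Esr1 at 0.82, and none lower, with a median of 0.10. Socs3 was at 0.41, Cish at -0.17 and Onecut1 at -0.16. At 21 against 13 months, where most of the Ugt2b38 difference lies, 3 of the 12 were past 1.5-fold higher and 3 lower. Background shares there were 1.47% higher and 0.457% lower. The lower genes of the list were Onecut1, a liver transcription factor, at -1.05, and the cytokine signalling inhibitors Socs2 at -0.80 and Cish at -0.66. Onecut1 was at 5.39, 6.15, 6.28 and 5.23 over the 4 ages, low at 4 and at 21 months. The higher ones were Bcl6, and Esr1 and Socs3 both at 0.65. Bcl6, a repressor that is higher in male liver, was at 7.0, 7.04, 5.93 and 7.13, with its low at 13 months and not at 21.

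**Figure D5:**
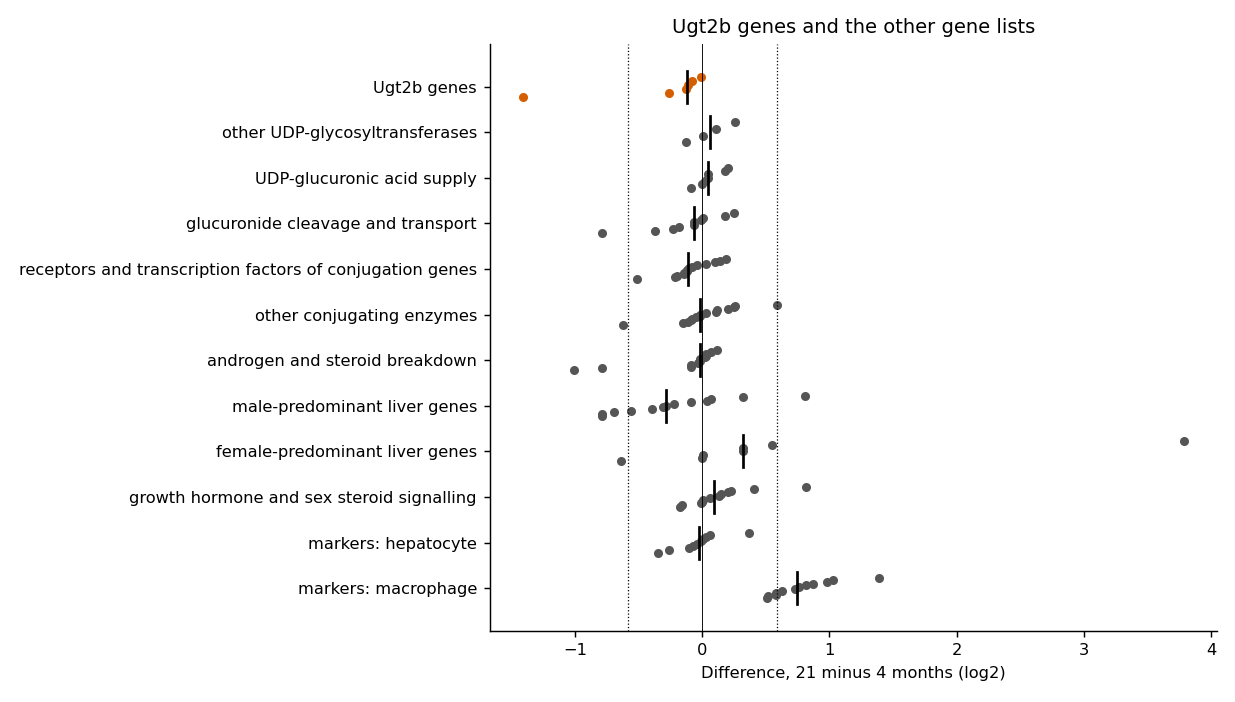
Difference between 21 and 4 months (log2, 21 minus 4) of each gene above the filter, by list, with 1 point per gene, vertical bars at list medians and dotted lines at 1.5-fold. Ugt2b38 at -1.41 lies left of every gene in the other lists, whose lowest is Hsd17b6 at -1.01.

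The liver label and the cell types in the RNA were checked with markers. Alb, the albumin gene of hepatocytes, was at 13.43 to 13.49, near the 13.7 that is the highest value on the arrays. Of 10 hepatocyte markers 0 were past 1.5-fold at 21 against 4 months, with a median of -0.03, and their summed log2 levels were 117.70, 116.22, 116.80 and 117.34 at the 4 ages. Macrophage markers were higher at 21 than at 4 months in 12 of 12 cases, 8 of them past 1.5-fold (background 2.11%). Their median was 0.745, and their sums were 90.78, 85.13, 92.42 and 100.18. The macrophage sum was thus lowest at 8 months and highest at 21 months, where Ugt2b38 was highest and lowest, and its part in the Ugt2b38 values was not tested. Sinusoidal endothelial markers had a median of 0.06 over 6 genes. Few markers of other cell types that can express glucuronosyltransferases passed the filter, with 2 of 5 for cholangiocytes (median 0.21), 3 of 7 for kidney tubule (0.00) and 2 of 5 for intestinal epithelium (0.05). Krt19, a bile duct keratin below the filter on level, was at 3.48, 4.99, 3.32 and 2.99, highest in the same 8-month pool as Ugt2b38. The cholangiocyte markers above the filter, Epcam and Sox9, were both higher by 0.09 at 8 than at 4 months and by 0.26 and 0.15 at 21 than at 4 months. The part of duct cells was not tested.

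The element printed above was set beside expression in other genes that hold it. It occurred before 27 genes, of which 11 beside the members were above the filter, Ugt3a1 and the dim Ugt2b37 among them. At 21 against 4 months 2 of the 11 were past 1.5-fold higher (background 2.11%) and none lower (background 0.423%), with a median of 0.15. Of the 11, 8 were above and 3 below their 4-month level, and 45.2% of all genes above the filter were below. Serpina7, which encodes thyroxine-binding globulin, was higher by 1.42, and the pyruvate kinase gene Pklr by 0.15. Among the genes above the filter that hold the element, members included, Ugt2b38 was the only one past 1.5-fold lower. With a background of 0.423% no call is the usual outcome for so few genes, so this count says nothing of the element.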

How the data were processed

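Per the submitters' processing notes the authors made the deposited log2 values with RMA, a background correction, between-array normalization and probe summary. Its version and the set of arrays it was run on were not given in the sources used here. Values have 2 decimals and run from 1.22 to 13.7. No detection calls were used. The platform annotation, updated through RefSeq gene identifiers, gave 34945 of 45101 probe sets 1 symbol. The probe set with the highest mean stood for a gene. A filter on level at 3.74, the median over probe set means, left 11587 genes. Groups were taken from the labelled age.

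With 1 array per age no test was run, and differences of log2 values were described for 6 pairs of ages at 1.5-fold and 2-fold. The members and the 9 pathway and 6 marker lists were chosen with earlier results of these data known. Genes named from the pathway lists are the 2 highest and 2 lowest differences at 21 against 4 months, and for the member with the widest span the 5 nearest profiles each way. Genes named beyond this (Ugt8a, Ugdh, Nr0b2, Elovl3, Bcl6, Socs2, Alb, Krt19, Epcam, Sox9, Serpina7, Pklr) were chosen after their values were seen. The counting step was tested on simulated data. Upstream sequences come from the RefSeq table of GRCm38.p6 and were aligned with match 1, mismatch -1, gap opening -3 and extension -0.5. Alternatives covered the probe set rule, the filter, the normalization and the thresholds. Quantile normalization and cyclic loess used limma 3.58.1 in R 4.3.3, alignments biopython 1.88, and the rest numpy 2.4.6 and pandas 2.3.3 in Python 3.11.15.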

Additional observations from a re-analysis of the deposited data

How the results depend on the processing

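No paired analysis was possible because each age has 1 array, and no array could be left out of a pair of ages for the same reason. In place of a replicate spread, a value counted as moved when it shifted by more than the median disagreement between probe sets of a gene or crossed 1.5-fold, and a count when it differed by more than 1.5 times. Under median centring, quantile normalization and cyclic loess the Ugt2b38 difference at 21 against 4 months stayed between -1.44 and -1.38. At 21 against 8 months it stayed between -1.99 and -1.91. The alternatives of probe set rule could not change these differences, since Ugt2b38 has a single probe set. The count of 1 member past 1.5-fold lower at 21 against 4, 13 and 8 months was the same under every alternative run. With a threshold of 1.2-fold, 1 member was higher at 8 against 4 months and 1 lower at 13 against 8 months, against 0 each at 1.5-fold. Both were Ugt2b38, at 0.53 and -0.55, and the share of all genes past 1.2-fold was not counted. The mean over members in place of the median gave -0.245 at 21 against 13 months, -0.333 at 21 against 4 and -0.393 at 21 against 8, because Ugt2b38 enters the mean with its full size. The 2 members lower at every step became 1 under median centring, quantile normalization and cyclic loess. The count was 0 with steps of at least 0.1 and 4 without the 8-month array. Leaving out an age leaves fewer steps to meet. The background of 3.14% holds for the main settings, and no share of all genes was counted for these alternatives. With probe sets averaged 1 member, Ugt2b34, was higher at every step, against 0. Over all pathway lists 6 genes were past 1.5-fold lower and 4 higher at 21 against 4 months, against 12 and 9 at 1.2-fold and 1 and 1 at 2-fold. All 6 members passed the filter on level at both cuts, so neither removing nor raising it could change a member count or median. In single lists 22 of 198 values moved, most of them counts at another threshold.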
